A study of Caenorhabditis elegans with 8 samples.

Results

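The cytochrome P450 (*cyp*), UDP-glucuronosyltransferase (*ugt*) and glutathione S-transferase (*gst*) genes of *C. elegans* were followed in whole embryos after knockdown of *ztf-11*, a zinc finger transcription factor gene of the Myt1 family. Members were all transcripts whose gene symbol begins with cyp-, ugt- or gst- and a number, and they made up 206 of the 50606 RefSeq transcripts counted. They belonged to 182 genes, of which 72 were *cyp*, 66 *ugt* and 44 *gst* genes. RNA-seq was done on 8 libraries, 4 from *ztf-11* knockdown (KD) embryos and 4 from control embryos, which the labels call biological replicates. Mothers of both groups were of the strain labelled TV23837, carried *eri-1(mg366)*, which makes worms hypersensitive to RNAi, and *ztf-11::gfp*, and were fed from the L1 larval stage for 64 h at 20 °C. In the KD group the bacteria expressed dsRNA against *ztf-11*, and in the control group they carried the empty vector L4440. IPTG was at 1 mM in both groups. Eggs were released by bleaching and kept for 3 h in M9 buffer, so each library is a mixture of all embryonic tissues, and the mothers were exposed to the dsRNA as well as the embryos.

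These families handle foreign and internal small molecules in steps. Cytochrome P450 enzymes use electrons from a reductase to oxidise lipophilic substrates, UDP-glucuronosyltransferases attach sugars to them, and glutathione S-transferases attach glutathione, after which ABC transporters can export the products. In larvae and adults many of these genes are active in the intestine and respond to toxins, while some P450 enzymes make signalling lipids or steroid hormones.

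The libraries held between 39343105 and 44933700 counts in *ztf-11* KD and between 39494873 and 45609675 in control embryos. Levels are given as counts per 1000000 (CPM) of the library size scaled by the trimmed mean of M values. *ztf-11* itself had 9.42, 10.96, 14.7 and 9.98 CPM in KD embryos, against 36.6, 68.4, 31.2 and 40.9 CPM in control embryos, so all KD libraries lay below all controls. Its log2 fold change was -1.97 (SE 0.27), with an adjusted p of 0.262 in edgeR and 1.2e-07 in DESeq2. Libraries of one group also differed from each other. KD 3 was the lowest of the 4 KD libraries for 35.7% of all transcripts tested, and control 2 the lowest of the 4 controls for 39.8%. Each was also most often the highest of its group, KD 3 for 33.04% and control 2 for 35.96%. Summed intestine markers were 2708 to 5678 CPM in KD and 1477 to 3539 CPM in control embryos, with the lowest sum of each group in KD 3 and control 2. Most of this sum came from *act-5* (mean 2116 CPM in KD, 973 CPM in control) and *asp-1* (1625 CPM in KD, 983 CPM in control). Of the 12 intestine markers tested, 6 were higher and 6 lower in KD embryos. *elt-2* averaged 67.3 CPM in KD and 67.5 CPM in control embryos, with 66.3 CPM in KD 3 and 71.8 CPM in control 2. Summed body wall muscle markers, at 3677 to 7406 CPM in KD and 2316 to 4187 CPM in control embryos, also had their lowest sums in KD 3 and control 2. So did summed neuron markers, at 13.9 to 42.7 CPM in KD and 9.51 to 26.4 CPM in control embryos. Summed epidermis markers were 1276 to 1809 CPM in KD, highest in KD 3, and 1155 to 1861 CPM in control embryos, lowest in control 2. Summed markers of maternal and early embryonic RNA were 367 to 623 CPM in KD and 487 to 1395 CPM in control embryos, with the highest sum in control 2 and the lowest in KD 4. Yolk protein and oocyte markers of the mother were at 0.421 to 0.975 CPM in KD and 1.36 to 1.62 CPM in control embryos, with *vit-2* and *vit-6* at 0. In whole embryos fewer cells of a type and less RNA per cell cannot be told apart.

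Most of the members were detected. At least 10 counts in every library were found for 44 *cyp*, 44 *ugt* and 30 *gst* genes, and 139 transcripts, each of a different gene, passed the filter on low counts and were tested (53 *cyp*, 51 *ugt* and 35 *gst*). The other 43 genes were too low to test, and 12 of these were listed at 0 in all libraries: *cyp-34A9*, *cyp-35B3*, *gst-21*, *ugt-4*, *ugt-9*, *ugt-17*, *ugt-21*, *ugt-26*, *ugt-29*, *ugt-42*, *ugt-45* and *ugt-55*. A count of 0 does not show that a gene with several transcripts is silent. Of the members with 1 transcript, 4 of 163 (2.45%) were at 0, whereas 8 of 19 (42.1%) of those with several transcripts were, beside 8.54% and 31.2% of all protein-coding genes of these kinds.

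A few genes carried much of each family's RNA. Per length of transcript, *gst-1* (179 CPM per kb, mean of the 8 libraries), *gst-7* (174) and *gst-20* (127) were the highest of all members tested. The P450 genes were led by *cyp-42A1* with 91.4 CPM per kb and *cyp-13B1* with 88.5, and the next one, *cyp-14A5*, had 36.8. Among the transferases of the *ugt* family, *ugt-57* had 72.9 and *ugt-58* 67.0 CPM per kb, followed by *ugt-51* with 28.6. The 5 most abundant transcripts held 50.8% of the *cyp*, 43.5% of the *ugt* and 55.6% of the *gst* CPM.

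**Figure D1:**
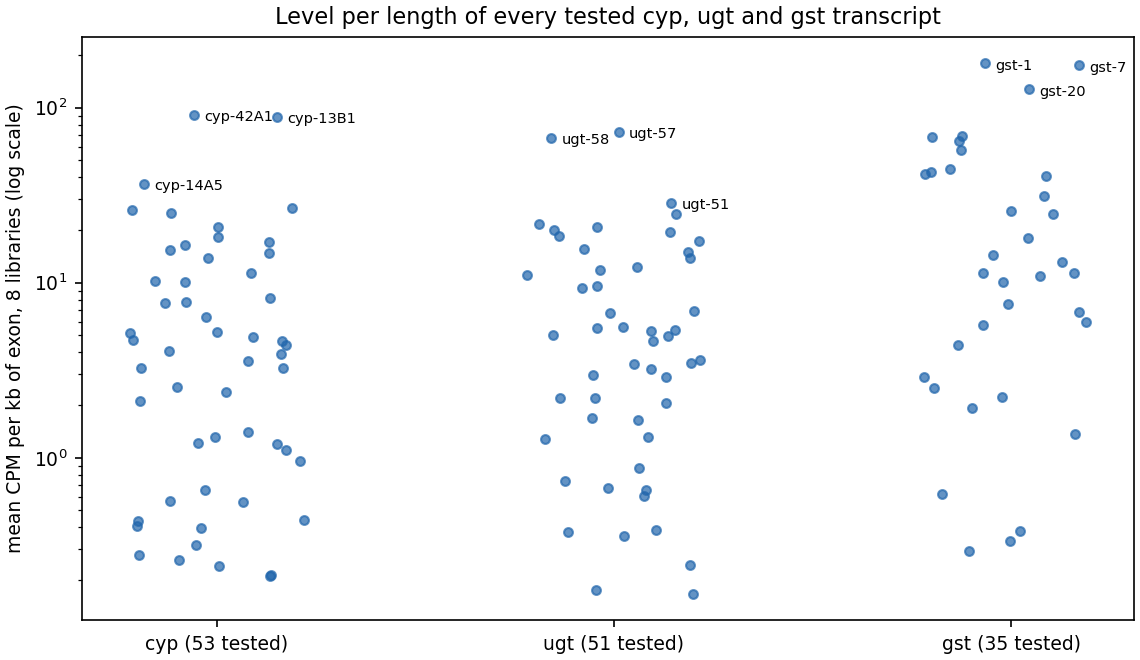
Level of each tested transcript in CPM per kb of exon (mean of the 8 libraries, log axis), 1 point per transcript, by family. The 3 highest of each family are named, and *gst-1*, *gst-7* and *gst-20* stand above all *cyp* and *ugt* transcripts.

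Of the 5 most abundant genes of each family, all but *gst-36* had an unadjusted p above 0.05. *cyp-42A1* averaged 175 ± 36.6 CPM in *ztf-11* KD and 159 ± 36.6 CPM in control embryos (SD, n = 4 each), and *cyp-13B1* averaged 153 ± 27.2 CPM in KD and 139 ± 10.2 CPM in control embryos. *gst-1* averaged 135 ± 18.5 CPM in KD and 134 ± 18.8 CPM in control embryos, and *gst-20* averaged 108 ± 6.61 CPM in KD and 101 ± 6.52 CPM in control embryos. *gst-42*, a gene of the maleylacetoacetate isomerase type that acts in tyrosine breakdown, averaged 55.8 ± 5.65 CPM in KD and 61.3 ± 1.44 CPM in control embryos. For all of these, and for *gst-7*, *ugt-57*, *ugt-58*, *ugt-51*, *ugt-48*, *ugt-60*, *cyp-14A5*, *cyp-25A3* and *cyp-23A1*, the groups overlapped. Their log2 fold changes lay between -0.27 (*ugt-48*) and 0.52 (*cyp-14A5*), and that of *gst-36* was 0.64 (SE 0.27).

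The families as wholes differed little in summed level. The *cyp* transcripts summed to 967, 970, 936 and 1030 CPM in *ztf-11* KD embryos, against 905, 736, 926 and 812 CPM in control embryos, and every KD library was above every control. The log2 ratio of the means was 0.21, and 0.15 to 0.26 when any 1 library was left out. The margin was narrow, with 936 CPM in KD 3 and 926 CPM in control 3. Part of the difference came from *cyp-32A1* (mean 39.1 CPM in KD, 11.1 CPM in control) and *cyp-13A5* (37.2 CPM in KD, 13.8 CPM in control), whose groups overlapped. Of the 53 *cyp* transcripts tested, 35 were higher and 18 lower. The *ugt* sums were 870, 882, 946 and 892 CPM in KD and 886, 841, 844 and 898 CPM in control embryos, with a log2 ratio of 0.05 and groups that overlapped. The *gst* sums were 837, 935, 726 and 1208 CPM in KD and 822, 627, 980 and 764 CPM in control embryos, with a log2 ratio of 0.22. The *gst* groups overlapped as well, with the lowest sums in KD 3 and control 2 and the highest in KD 4.

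**Figure D2:**
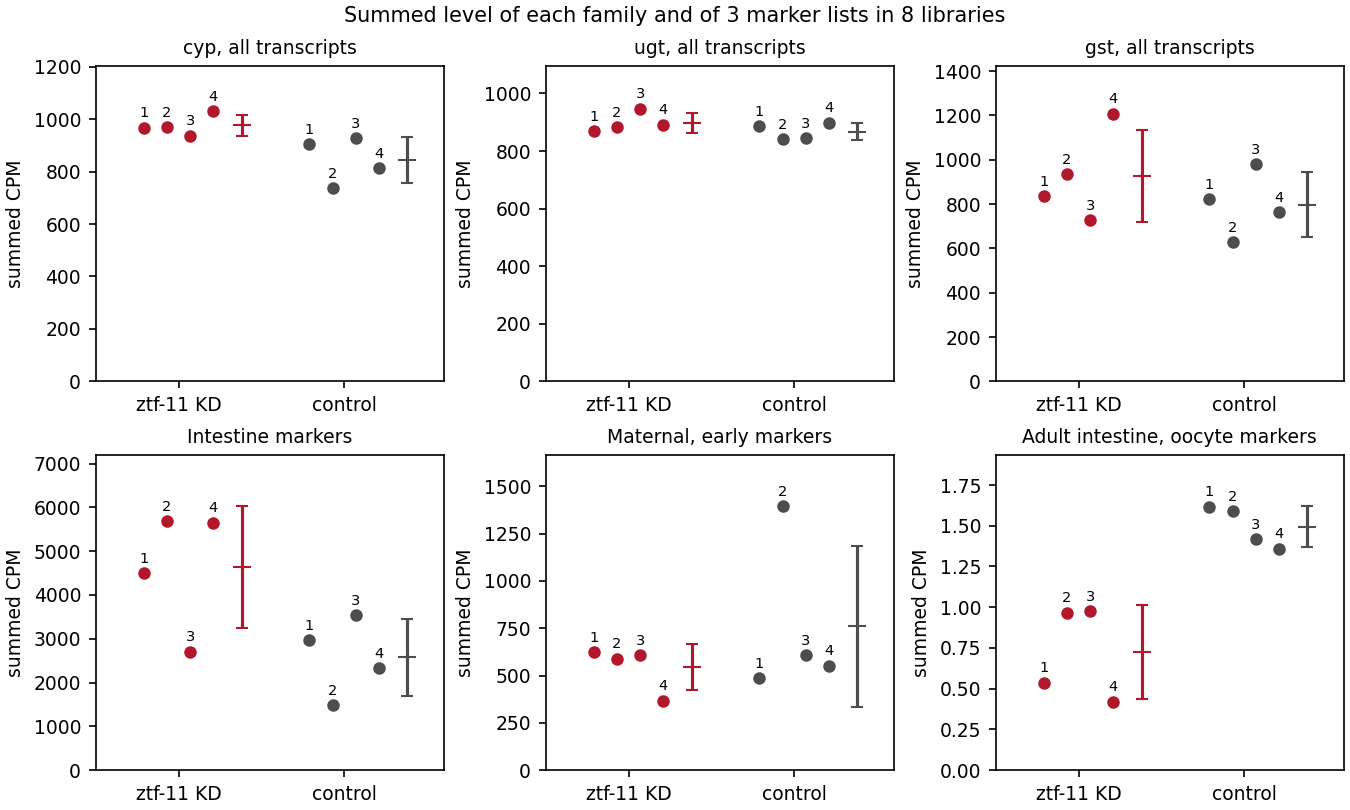
Summed CPM of all transcripts of each family (top) and of 3 lists of marker genes (bottom) in the 4 *ztf-11* KD and the 4 control libraries, numbered by replicate, with the mean and SD of each group at its right. The *cyp* sums of KD embryos (936 to 1030) lie above those of control embryos (736 to 926), and the *gst* and intestine marker sums are lowest in KD 3 and control 2 within their groups.

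No member passed an adjusted p of 0.1 in edgeR, nor did any other transcript (0 of 14328 tested, 0%). The smallest adjusted p was 0.359 in the *gst*, 0.367 in the *cyp* and 0.381 in the *ugt* family. At an unadjusted p under 0.05, 15 of the 139 members were higher and 6 lower in *ztf-11* KD embryos, or 10.8% and 4.32%, beside 8.8% and 3.99% of all transcripts tested. Of the 152 members with an adjusted p in DESeq2, 5 were called higher and 3 lower at an adjusted p under 0.1. Of all transcripts with one, 2.34% were called higher and 0.297% lower. All KD libraries lay above all controls for 8 of the 139 members, and below them for 6, beside 3.61% and 2.46% of all transcripts tested.

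The direction differed in its balance between the families. Of the *gst* transcripts 28 were higher and 7 lower in *ztf-11* KD embryos (median log2 fold change 0.52). Of the *cyp* transcripts 35 were higher and 18 lower (median 0.13), and of the *ugt* transcripts 26 were higher and 25 lower (median 0.02), beside a median of -0.01 over all transcripts tested, of which 49.2% were higher. The *gst* median was 0.28 without KD 4, which was the highest KD library for 25 of the 35 *gst* transcripts. It was also 0.28 without control 2, which was the lowest control for 22 of them, and 0.68 without control 3. Over all transcripts tested, KD 4 was the highest KD library for 31.3% and control 2 the lowest control for 39.8%.

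**Figure D3:**
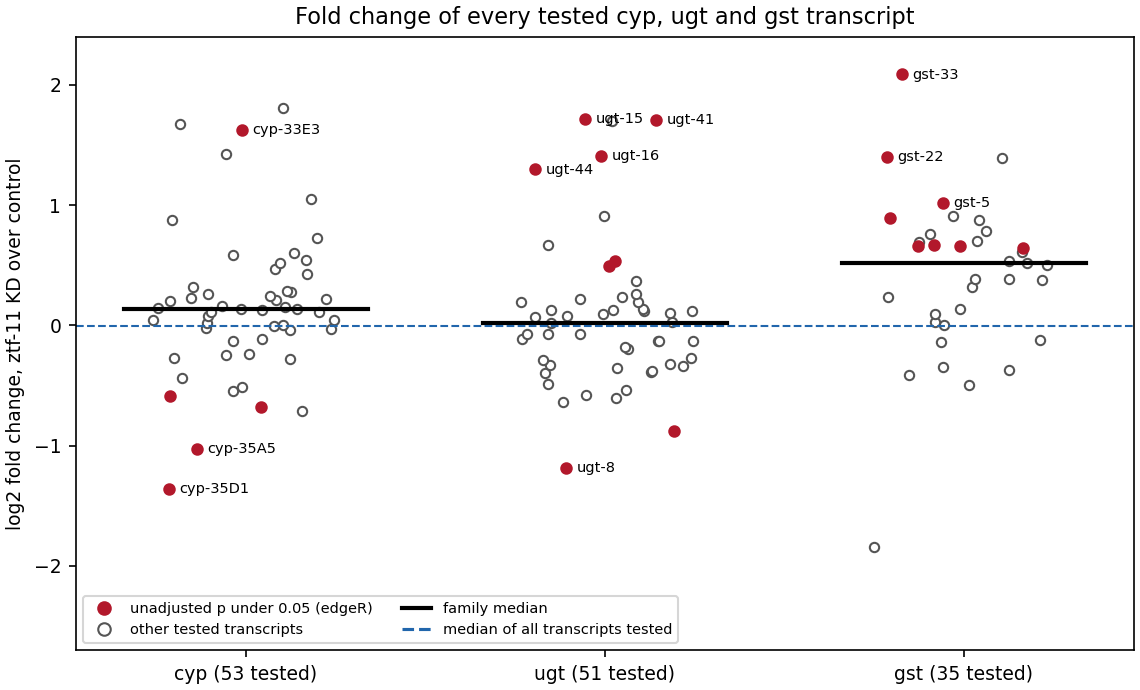
Log2 fold change (*ztf-11* KD over control, edgeR) of each tested transcript, 1 point each, by family. Filled points have an unadjusted p under 0.05, black bars are the family medians (0.13 for *cyp*, 0.02 for *ugt*, 0.52 for *gst*), and the dashed line is the median of all transcripts tested.

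Glutathione S-transferases gave 8 of the 15 higher members with an unadjusted p under 0.05 and none of the lower ones. *gst-33* had 2.81, 3.37, 1.35 and 2.48 CPM in *ztf-11* KD embryos, against 0.633, 0.451, 0.864 and 0.395 CPM in control embryos. All KD libraries were above all controls, and the log2 fold change was 2.09 (SE 0.43), with an adjusted p of 0.359 in edgeR and 0.0015 in DESeq2. *gst-23* had 9.36, 9.69, 9.42 and 8.88 CPM in KD embryos, against 6.49, 6.07, 5.65 and 5.48 CPM in control embryos. The groups did not overlap and each was tight, with a log2 fold change of 0.66 (SE 0.18) and adjusted p values of 0.359 in edgeR and 0.053 in DESeq2. *gst-13* had 52.8, 65.4, 47.2 and 80.4 CPM in KD embryos, against 45.6, 29.4, 42.8 and 37.5 CPM in control embryos. The lowest KD library was just above the highest control, and the log2 fold change was 0.66 (SE 0.20). *gst-35* had 32.8, 36.2, 32.7 and 60.3 CPM in KD embryos, against 24.0, 8.47, 30.6 and 24.1 CPM in control embryos, with a log2 fold change of 0.89 (SE 0.36). Its groups lay apart by a small margin, with KD 4 far above the other KD libraries and control 2 far below the other controls.

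*gst-11* also had all KD libraries above all controls, at 2.47 ± 0.437 CPM in *ztf-11* KD and 1.55 ± 0.119 CPM in control embryos. *gst-22* averaged 25.9 ± 9.62 CPM in KD and 9.81 ± 6.85 CPM in control embryos, and *gst-36* averaged 63.6 ± 15.4 CPM in KD and 40.8 ± 13.8 CPM in control embryos. Both overlapped between the groups, with KD 3 the lowest of the KD libraries and control 3 the highest of the controls. *gst-5*, whose enzyme conjugates the lipid peroxidation product 4-hydroxynonenal, had a log2 fold change of 1.02 (SE 0.43) with groups that overlapped. Exons of *gst-22*, *gst-36* and *gst-5* overlap a gene on the opposite strand, and the strand setting of the counting was not given in the sources used here. *gst-41* was too low to be tested in edgeR, with 23, 5, 0 and 49 counts in KD embryos and 1, 0, 0 and 0 in control embryos, and DESeq2 gave it an adjusted p of 0.0437. *gst-4*, a common reporter of the oxidative stress factor SKN-1, shares exon sequence with *dhs-12* on the same strand and averaged 36.0 ± 15.4 CPM in KD and 25.1 ± 8.29 CPM in control embryos. In the other direction, *gst-16* had 16.7, 19.7, 18.8 and 21.4 CPM in KD embryos, against 21.8, 24.7, 28.6 and 22.5 CPM in control embryos. Its groups lay narrowly apart, with a log2 fold change of -0.35 (SE 0.16).

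**Figure D4:**
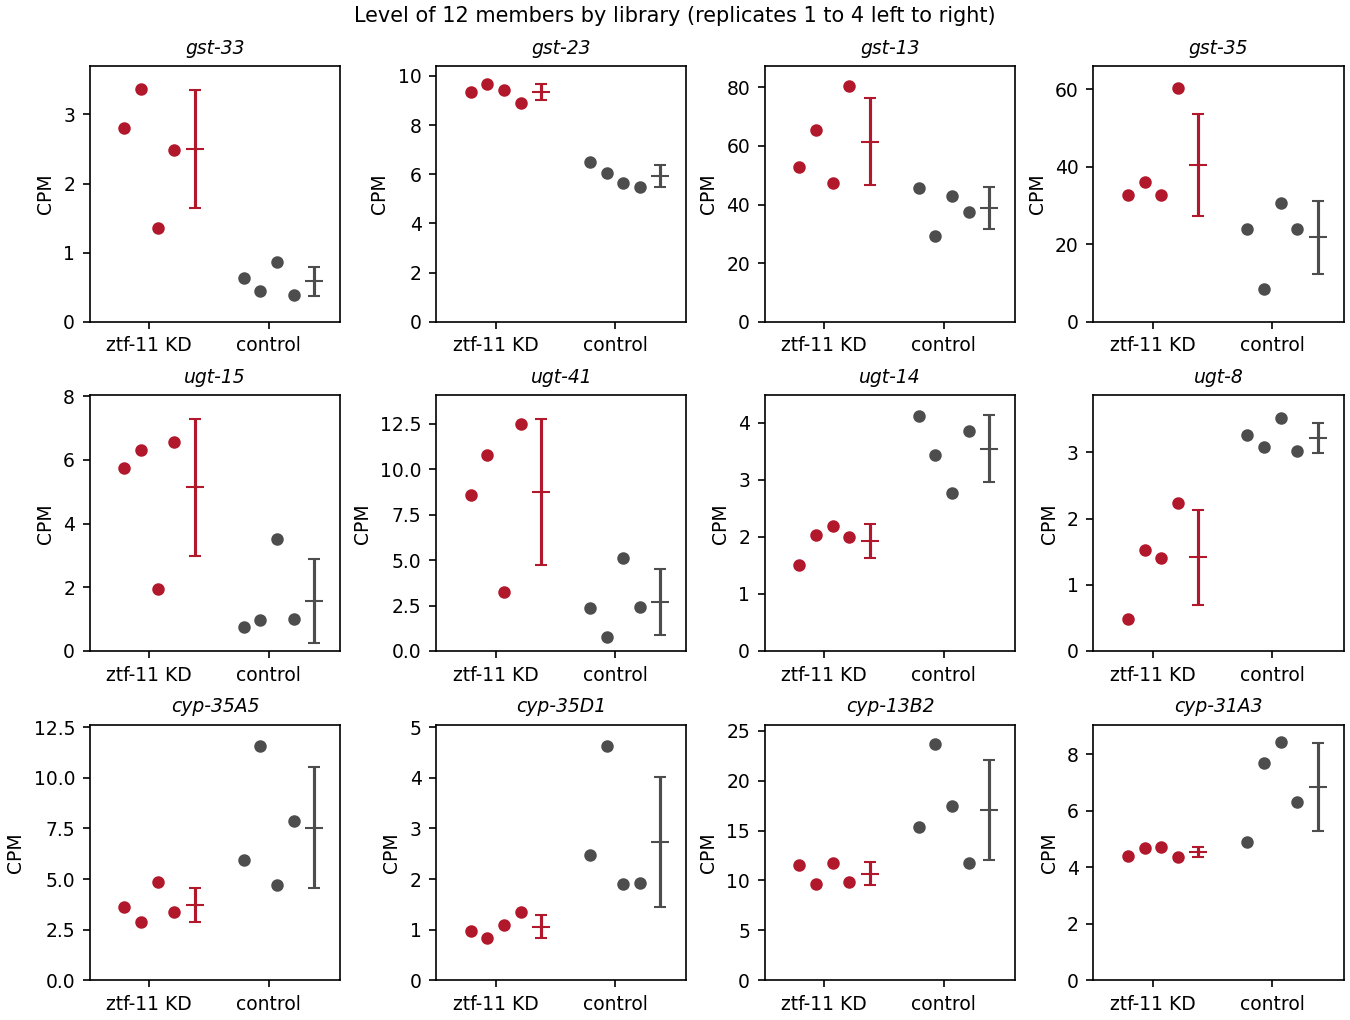
CPM of 12 members in the 4 *ztf-11* KD and the 4 control libraries (replicates 1 to 4 from left to right), with the mean and SD of each group at its right. The groups are apart for the 4 *gst* genes (KD higher) and for *ugt-14*, *ugt-8*, *cyp-35D1* and *cyp-31A3* (KD lower), and overlap for *ugt-15*, *ugt-41*, *cyp-35A5* and *cyp-13B2*.

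Among the UDP-glucuronosyltransferases 6 were higher and 2 lower in *ztf-11* KD embryos at an unadjusted p under 0.05. *ugt-41* had 8.60, 10.8, 3.22 and 12.5 CPM in KD embryos, against 2.38, 0.759, 5.14 and 2.45 CPM in control embryos, and *ugt-15* had 5.74, 6.32, 1.95 and 6.55 CPM in KD embryos, against 0.742, 0.972, 3.52 and 1.01 CPM in control embryos. In both, KD 3 lay below control 3 while the other KD libraries were above all controls. The log2 fold change was 1.71 (SE 0.56) for *ugt-41* and 1.71 (SE 0.57) for *ugt-15*, with DESeq2 adjusted p values of 0.061 and 0.072 and edgeR values of 0.383. *ugt-44* (log2 fold change 1.30), *ugt-16* (1.41), *ugt-54* (0.49) and *ugt-62* (0.54) overlapped between the groups. The 1 *ugt* gene with all KD libraries above all controls was *ugt-47*, with 52, 111, 47 and 76 counts in KD embryos, against 14, 0, 49 and 28 in control embryos. After scaling the lowest KD library was just above the highest control (1.17 CPM in KD 3 and 1.09 CPM in control 3), with an unadjusted p above 0.05 in edgeR, and its exons overlap a gene on the opposite strand.

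The 2 *ugt* genes with an unadjusted p under 0.05 that were lower both had groups apart. *ugt-14* had 1.51, 2.03, 2.20 and 1.99 CPM in *ztf-11* KD embryos, against 4.13, 3.44, 2.77 and 3.85 CPM in control embryos. All KD libraries were below all controls, with a log2 fold change of -0.88 (SE 0.28) and an adjusted p of 0.381 in edgeR and 0.085 in DESeq2. *ugt-8* had 0.485, 1.53, 1.40 and 2.24 CPM in KD embryos, against 3.25, 3.08, 3.52 and 3.01 CPM in control embryos. The groups were again apart, and the log2 fold change was -1.18 (SE 0.42), with DESeq2 giving an adjusted p of 0.136. *ugt-23* was lower in all KD libraries too, at 5.51 ± 0.448 CPM in KD and 7.18 ± 1.24 CPM in control embryos.

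Cytochrome P450 genes had 1 higher and 4 lower members at an unadjusted p under 0.05, although more of the family lay above 0 than below. *cyp-35D1* had 0.970, 0.825, 1.10 and 1.35 CPM in *ztf-11* KD embryos, against 2.47, 4.62, 1.91 and 1.93 CPM in control embryos. All KD libraries were below all controls, with a log2 fold change of -1.36 (SE 0.39) and adjusted p values of 0.367 in edgeR and 0.054 in DESeq2. *cyp-35A5* had 3.62, 2.90, 4.87 and 3.39 CPM in KD embryos, against 5.96, 11.6, 4.72 and 7.88 CPM in control embryos. Only KD 3 and control 3 overlapped, and the log2 fold change was -1.03 (SE 0.32), with adjusted p values of 0.377 in edgeR and 0.085 in DESeq2. Both belong to the *cyp-35* genes, known in larvae and adults for their induction by foreign chemicals. Of the 10 *cyp-35* genes 6 were tested, and 2 were higher and 4 lower.

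*cyp-31A3*, which acts with the P450 reductase EMB-8 in forming the eggshell, had 4.41, 4.67, 4.70 and 4.36 CPM in *ztf-11* KD embryos, against 4.89, 7.68, 8.42 and 6.32 CPM in control embryos. The groups did not overlap, and the log2 fold change was -0.59 (SE 0.24). The other tested gene of the *cyp-31A* subfamily, *cyp-31A2*, averaged 4.12 ± 1.36 CPM in KD and 3.57 ± 1.09 CPM in control embryos. Its groups overlapped, with a log2 fold change of 0.21 (SE 0.33). *cyp-13B2* averaged 10.7 ± 1.12 CPM in KD and 17.1 ± 5.01 CPM in control embryos, with groups that overlapped at their edge. The highest value of *cyp-31A3* was in control 3, and that of *cyp-13B2* in control 2. *cyp-33A1* was slightly higher in all KD libraries, with 31.1, 29.1, 29.8 and 32.1 CPM in KD embryos, against 27.7, 26.5, 26.3 and 28.8 CPM in control embryos. *cyp-33E3*, whose exons overlap a gene on the opposite strand, had 18, 28, 23 and 20 counts in KD embryos, against 10, 10, 8 and 2 in control embryos. These counts did not overlap, and the log2 fold change was 1.63 (SE 0.63).

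Many members are neighbours in the genome, and 93 of them stood in 27 runs of adjacent genes of 1 family. Where exons of neighbours overlap, as in *gst-17* and *gst-18*, a read can fall on both genes, and neighbours were not taken as independent. The run of *ugt-18*, *ugt-16* and *ugt-15* was higher at all 3 genes, with log2 fold changes of 0.91, 1.41 and 1.71. The run from *ugt-11* to *ugt-13*, which holds *ugt-8* and *ugt-14*, had 4 lower and 1 higher of 5 genes tested. In the *cyp-33C* subfamily all 9 genes tested had a log2 fold change above 0 (0.002 to 0.88, median 0.47), none with an unadjusted p under 0.05. In the run from *gst-26* to *gst-31*, 5 of 6 genes were higher, and in that from *gst-20* to *gst-18*, 4 were higher and 3 lower of 7 tested.

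For the members the median SD of log2 CPM was 0.46 (*ztf-11* KD) and 0.48 (control), beside 0.31 in KD and 0.43 in control embryos for all transcripts tested. It was largest in the *gst* family, at 0.56 in KD and 0.60 in control embryos, while the *ugt* family, at 0.45 in KD and 0.38 in control embryos, lay below all transcripts in the controls. With a mean count of at least 50, the highest control exceeded the lowest more than 3-fold in 11 of 30 *gst* (36.7%), 10 of 41 *cyp* (24.4%) and 8 of 42 *ugt* transcripts (19.0%), beside 17.8% of all transcripts. The widest ranges, picked out after the values were seen, were in *cyp-36A1* (57.7-fold among controls), *gst-9* (39.2-fold) and *cyp-32A1* (17.5-fold). *cyp-32A1* had 28.9, 61.2, 6.52 and 59.7 CPM in KD embryos, against 7.91, 1.71, 29.8 and 5.11 CPM in control embryos. KD 3 and control 2 were the lowest of their groups and control 3 the highest control. The same libraries were low or high in summed intestine, body wall muscle and neuron markers. Summed epidermis markers were instead highest in KD 3 among the KD libraries. Among the 4 KD libraries KD 3 was the lowest for 62 and KD 4 the highest for 65 of the 139 members. Among the 4 controls control 2 was the lowest for 68 and control 3 the highest for 64. KD 3 was also the highest for 35 members, and control 2 for 26. Over all transcripts tested, KD 3 was the lowest KD library for 35.7% and KD 4 the highest for 31.3%. Control 2 was the lowest control for 39.8% of them and control 3 the highest for 31.5%. KD 3 was itself the highest KD library for 33.04% of them, and control 2 the highest control for 35.96%. The part of these libraries' tissue content or embryo stage in the members' levels was not tested.

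**Figure D5:**
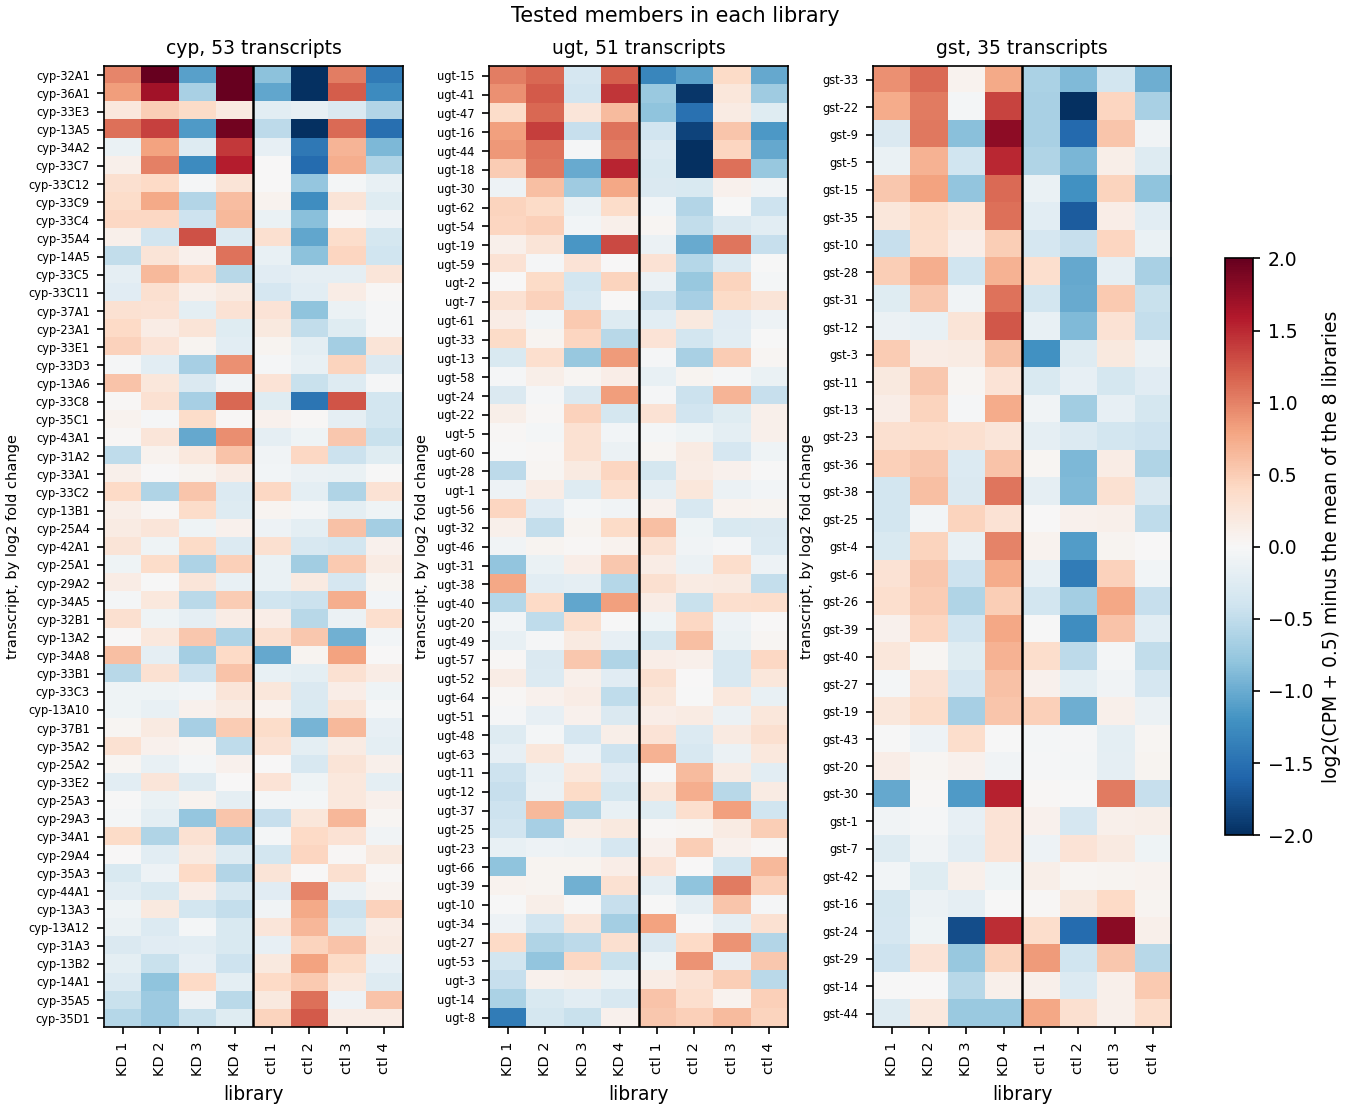
Log2(CPM + 0.5) of each tested member in the 8 libraries, with its mean over the 8 subtracted (red higher, blue lower, with values past the ends of the scale drawn in its end colours), by family and ordered by log2 fold change. KD 1 to 4 are the *ztf-11* KD libraries and ctl 1 to 4 the controls, split by the black line, and KD 3 and ctl 2 are pale or blue for many transcripts that are red in KD 4 and ctl 3.

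Genes that work with these families were described in the same way, and none passed an adjusted p of 0.1 in edgeR. Over all transcripts tested, 8.8% were higher and 3.99% lower at an unadjusted p under 0.05 in edgeR. All KD libraries lay above all controls for 3.61%. The P450 reductase gene *emb-8* averaged 277 ± 14.9 CPM in *ztf-11* KD and 257 ± 13.6 CPM in control embryos, with groups that overlapped. *gcs-1*, which encodes the rate-limiting enzyme of glutathione synthesis, had 291, 342, 302 and 407 CPM in KD embryos, against 262, 206, 279 and 272 CPM in control embryos, a log2 fold change of 0.40 (SE 0.15). All KD libraries were above all controls. Of the flavin monooxygenases, which oxidise substrates much as P450 enzymes do, 4 of 5 were tested, with 3 higher and 1 lower, and *fmo-1* (log2 fold change 0.50) and *fmo-3* (2.17) had an unadjusted p under 0.05. Of the glutathione transferases of other classes, 4 of 5 were higher, and *gstk-2* (1.27, DESeq2 adjusted p 0.023) and *gsto-3* (0.68) had an unadjusted p under 0.05.

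Of the ABC transporter genes listed (*pgp*, *mrp* and *haf* genes), 21 of 32 were tested, with 13 higher and 8 lower in *ztf-11* KD embryos. At an unadjusted p under 0.05 were *pgp-3* (log2 fold change 1.32), *pgp-10* (0.76), *pgp-14* (1.75), *mrp-1* (0.54) and *haf-2* (0.59), all higher. Over all transcripts tested, 8.8% were higher and 3.99% lower at this cut. *pgp-10* and *mrp-1* had all KD libraries above all controls. The most abundant of these transporter genes, the heme exporter gene *mrp-5*, averaged 388 ± 24.6 CPM in KD and 449 ± 84.3 CPM in control embryos. Of the regulators of detoxification 7 of 14 were tested, with 5 higher and 2 lower, and the intestinal stress factor gene *pqm-1* was at 127 ± 42.4 CPM in KD and 72.8 ± 21.4 CPM in control embryos. *nhr-8*, *nhr-86*, *aha-1* and *mdt-15*, which belong to this list, were listed at 0. *nhr-8* has 2 transcripts in the counts and the others 1 each, and whether these genes were silent was not tested.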

How the data were processed

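The authors deposited raw counts, unnormalized whole reads on each RefSeq transcript, made by trimming adaptors, mapping with TopHat2 to *ce10* and counting uniquely mapped reads with featureCounts. Versions, strand setting and the rule for reads over several transcripts were not given in the sources used here. Members, lists and tests were chosen with earlier results of these data known. Names came from a RefSeq gene table of WBcel235, and exon lengths and overlaps from Ensembl release 115. The table lists 9 further member genes with no transcript matched in the counts, which were not analysed here.

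Counts were tested with edgeR 4.0.16 in R 4.3.3 (filterByExpr with a minimum count of 10, TMM scaling, robust quasi-likelihood test, condition as the only term), with Benjamini-Hochberg adjustment over the 14328 transcripts tested and a threshold of 0.1. DESeq2 1.42.0 was an alternative, and both were tested on simulated data. Other alternatives were DESeq2 size factors, library totals, no filter, counts summed per gene, a replicate block and leaving out each library. p-values set the difference between the groups against the spread between the libraries of a group. Library totals of 39343105 to 45609675 limit the precision of the rarest transcripts.

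Named were *ztf-11* and, in each family, the 5 most abundant genes, the 5 with the smallest p, those called by either tool and those with groups apart at a mean count of at least 50. Genes of the pathway lists were named at an unadjusted p under 0.05 or as the most abundant of a list. Other genes named were chosen after their values were seen.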

Additional observations from a re-analysis of the deposited data

Results flagged for a closer look

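In 7 of 78 groups of 4 libraries of named members, 1 library lay far outside the range of the remaining 3. Chance alone would give about 5% if the groups were independent and the values normally distributed. The groups shared the same libraries, and some members were named for a small p or for groups apart. So 7 of 78 cannot be set against that share. In *ztf-11* KD embryos, *gst-35* had 60.3 CPM in replicate 4 (32.7 to 36.2 CPM in the others), *gst-36* had 40.7 CPM in replicate 3 (69.0 to 73.2 CPM) and *ugt-62* had 23.4 CPM in replicate 3 (33.03 to 34.86 CPM). In control embryos, *gst-1* had 106 CPM in replicate 2 (142 to 144 CPM in the others), *ugt-23* had 9.04 CPM in replicate 2 (6.37 to 6.66 CPM) and *ugt-15* had 3.52 CPM in replicate 3 (0.742 to 1.01 CPM). *gst-41* had 0.0218 CPM in control replicate 1, a single count, and 0 in the other controls.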

How the results depend on the processing

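The count of members past the threshold was 0 in each family in edgeR under all settings run, and 2 *cyp*, 3 *ugt* and 3 *gst* in DESeq2. The counts at an unadjusted p under 0.05, 5 *cyp*, 8 *ugt* and 8 *gst*, were 3 *cyp* with no filter and 5 *gst* with library totals. The replicate numbers did not pair the samples (correlations of deviations 0.00524, -0.300, -0.642 and -0.206), and with the replicate block the counts were 3 *cyp*, 3 *ugt* and 4 *gst*. Leaving out 1 library gave 3 to 7 *cyp*, 4 to 10 *ugt* and 3 to 11 *gst*, with counts over 1.5 times lower without KD 2 for *cyp* (3), without KD 1 (5), KD 2 (4), KD 4 (5) or control 4 (4) for *ugt*, and without KD 4 (4), control 1 (5) or control 4 (3) for *gst*. Log2 ratios of the family sums were 0.15 to 0.26, 0.02 to 0.07 and 0.06 to 0.33 for *cyp*, *ugt* and *gst*. The *ugt* median log2 fold change was below 0 in DESeq2 (-0.10), with no filter (-0.08) and without KD 4 (-0.07), control 2 (-0.05) or control 4 (-0.03). Of 35 named genes, 32 kept their direction under all 14 alternatives. The sign of *gst-1* turned with DESeq2 (-0.012), DESeq2 size factors (-0.011), library totals (-0.013), no filter (-0.0020) and when KD 4 or control 2 was left out (range over the libraries left out -0.11 to 0.060), that of *ugt-57* without KD 4 (range -0.38 to 0.016) and that of *ugt-60* without control 3 (range -0.00021 to 0.16). The cause was not tested. Of all transcripts with an unadjusted p under 0.05, 68.8% lay higher in KD with TMM scaling and 53.2% with library totals, and of the members 71.4% with TMM scaling and 64.7% with library totals.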
